A study of Mus musculus with 18 samples.

Results

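The Hox genes encode homeodomain transcription factors, and the combination that a cell expresses marks its position along the body and limb axes. All 39 genes with a symbol made of Hoxa, Hoxb, Hoxc or Hoxd and a paralog number were taken from the 35275 genes of the deposited table. They comprised 11 Hoxa, 10 Hoxb, 9 Hoxc and 9 Hoxd genes, and each was followed through all 18 libraries in the order of its cluster and paralog number. The comparisons set differences between the cell lines beside the differences that each line showed on differentiation.

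The libraries were poly(A) RNA-seq of C2C12, an immortal mouse myoblast line whose cells form myotubes in low serum, from a stock labelled PAX7 NEG. The control cells carried the genotype label wild-type, and the other lines overexpressed the spliced form (MUNC spliced) or the genomic, unspliced form (MUNC genomic) of MUNC, an RNA from the region upstream of the Myod1 gene that encodes no protein. Each line was sampled in growth medium with 20% fetal bovine serum (GM) below confluence and after 3 days in 2% horse serum (DM3). There were 3 biological replicates in each of the 6 groups. Whether a line was 1 clone or a pool, what drove the overexpression and whether the control carried a vector are not given in the sources used here. The level of MUNC itself was not analysed here.

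Hox genes act in clusters. Within a cluster, genes of low paralog number are used toward the head and at the base of a limb, and genes of high paralog number toward the tail and the limb tip. Genes of equal paralog number in different clusters are ancient duplicates whose proteins bind similar DNA, mostly together with TALE homeodomain cofactors of the Pbx, Meis and Pknox families. Fibroblasts and muscle cells of the adult keep much of the Hox pattern of the body region they came from, and C2C12 cells were derived from adult mouse thigh muscle. Hoxc10 and Hoxc11 are known for expression in the hindlimb rather than the forelimb, and Pitx1 and Tbx4 are the other classic hindlimb factors.

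Recovered depth was 38416702 to 68788327 reads per library. Levels are in FPM, gene reads divided by the library's size factor, and 3 reads, the upper limit that a count of 0 allows, corresponded to 0.0429 to 0.0757 FPM. Myod1, the factor that defines the myoblast state, averaged 0.0284 ± 0.049 FPM (SD, n = 3) in control GM against 0.0993 ± 0.11 FPM in control DM3, while its means were 12.4 ± 4.86 and 28.6 ± 21.5 FPM in MUNC spliced and 3.84 ± 2.80 and 18.4 ± 3.99 FPM in MUNC genomic cells. Of 9 myoblast markers, 3 stood under 0.1 FPM in both control groups, 2 in both MUNC spliced groups and 1 in both MUNC genomic groups. Summed, the 9 stood at 370.4 to 544.6 FPM in control GM against 794.1 to 1174 FPM in control DM3, without overlap. Their MUNC spliced sums were 669.5 to 916.6 FPM in GM against 905.3 to 1497 FPM in DM3. Their MUNC genomic sums were 585.7 to 998.9 FPM in GM against 1849 to 1955 FPM in DM3. The 9 myotube markers in the table summed to 11.7 to 22.8 FPM in control DM3, 195 to 1091 FPM in MUNC spliced DM3 (highest in replicate 1) and 71.3 to 134 FPM in MUNC genomic DM3. In GM the sums were 13.0 to 32.3 FPM in control, 31.3 to 53.5 FPM in MUNC spliced and 8.47 to 13.4 FPM in MUNC genomic cells. The control sums of the myotube markers thus overlapped between media, and differentiation here names only the change from GM to DM3. Endothelial Cdh5 averaged 7.14 FPM in MUNC genomic GM against 4.20 FPM in MUNC genomic DM3 and at most 0.199 FPM in the other groups, while 2 of the 3 endothelial markers stayed under 0.1 FPM in both MUNC genomic groups. The 6 fibroblast markers also moved with the line. Their sums were 8526 to 13450 FPM in MUNC spliced GM against 4987 to 7483 FPM in control GM and 4501 to 9050 FPM in MUNC genomic GM. In DM3 they were 10220 to 11580 FPM in MUNC spliced against 5411 to 6361 FPM in control and 5342 to 6080 FPM in MUNC genomic cells, so the MUNC spliced libraries overlapped neither. Thy1 was at or near 0 in all groups. The part of these markers in the Hox differences was not tested.

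The part of the homeobox that encodes the DNA-contacting recognition helix shows how alike the members are, and it is given for 3 pairs of equal paralog number whose 2 members were called in different sets of comparisons. Each window holds 30 bases, 5′ to 3′ on the coding strand, from GENCODE M21 on GRCm38, and capitals mark the bases that differ within a pair. Hoxb6 (chr11:96300812-96300841, plus strand) and Hoxc6 (chr15:103010877-103010906, plus strand) differed at 4 bases.
Hoxb6: gagcgGcagatcaaGatTtggttTcagaac
Hoxc6: gagcgAcagatcaaAatCtggttCcagaac
Hoxa11 (chr6:52243429-52243458, minus strand) and Hoxc11 (chr15:102956603-102956632, plus strand) differed at 3 bases.
Hoxa11: gaccgTcaagtCaaaatCtggtttcagaac
Hoxc11: gaccgAcaagtGaaaatTtggtttcagaac
Hoxa13 (chr6:52258955-52258984, minus strand) and Hoxc13 (chr15:102927333-102927362, plus strand) differed at 4 bases.
Hoxa13: gagAgGcaggtcacAatctggttccagaaC
Hoxc13: gagCgTcaggtcacCatctggttccagaaT
All of these differences were synonymous, so both members of each pair encode the same residues there. Over all 39 genes the windows encoded 9 residue sequences, the most common of them shared by 14 genes of paralog numbers 3 to 7. Hoxa10, Hoxa11, Hoxc10, Hoxc11, Hoxd10 and Hoxd11 shared another. Pairs of equal paralog number agreed at a median of 26 of 30 bases (22 to 30, 42 pairs), and other pairs at a median of 24 (19 to 30, 699 pairs).

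How many reads members could share was not tested. Among 741 pairs of Hox genes, 4 had an identical stretch of 50 bases or more in their exons: Hoxd3 with Hoxd4 (388 bases), Hoxc5 with Hoxc10 (168), Hoxa6 with Hoxb4 (52) and Hoxb9 with Hoxc9 (50). Stretches of 30 to 47 bases joined 20 further pairs, and the read length is not given in the sources used here. Exon bases were shared with another annotated gene by 15 of the 39 genes, and by more than 20% of their exon length in 7, among them Hoxb3 (52.9%, with Hoxb3os on the opposite strand), Hoxa11 (35.0%, with Hoxa11os) and Hoxa3 (27.1%). Whether reads were counted by strand is not given in the sources used here, so reads of these genes and of their antisense partners cannot be told apart.

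Promoters were at hand for 22 of the 39 genes (RefSeq, GRCm38.p6, matched by symbol), and 4 of them are shown because the gene's level differed between lines. Each is the 250 bases before the RefSeq start, 5′ to 3′ on the gene's strand. Capitals mark CANNTG, the E-box bound by myogenic factors such as MyoD, of which the Hoxa10 promoter holds none. Hoxb4 (chr11:96318017-96318266, plus strand) lies in a block of Hoxb genes whose means were highest in MUNC genomic and lowest in MUNC spliced cells.
Hoxb4: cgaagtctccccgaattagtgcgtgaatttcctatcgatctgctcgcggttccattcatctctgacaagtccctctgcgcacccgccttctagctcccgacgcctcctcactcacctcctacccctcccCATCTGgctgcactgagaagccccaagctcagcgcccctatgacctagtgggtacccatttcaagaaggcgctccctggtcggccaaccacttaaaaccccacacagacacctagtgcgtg
Hoxa11 (chr6:52245811-52246060, minus strand) was lowest in MUNC spliced cells.
Hoxa11: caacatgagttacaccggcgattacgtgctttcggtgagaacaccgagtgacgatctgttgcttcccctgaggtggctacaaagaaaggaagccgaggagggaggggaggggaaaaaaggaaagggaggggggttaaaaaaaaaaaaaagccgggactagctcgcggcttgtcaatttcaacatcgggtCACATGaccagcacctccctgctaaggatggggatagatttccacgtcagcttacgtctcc
Hoxa10 (chr6:52240855-52241104, minus strand, the promoter of the longer gene model) and Hoxa5 (chr6:52204588-52204837, minus strand) were highest in MUNC genomic DM3.
Hoxa10: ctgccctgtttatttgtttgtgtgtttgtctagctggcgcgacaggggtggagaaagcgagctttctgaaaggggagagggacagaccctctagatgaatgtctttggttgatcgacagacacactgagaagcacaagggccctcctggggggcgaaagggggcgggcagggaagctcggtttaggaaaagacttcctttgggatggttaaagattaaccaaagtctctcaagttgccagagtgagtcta
Hoxa5: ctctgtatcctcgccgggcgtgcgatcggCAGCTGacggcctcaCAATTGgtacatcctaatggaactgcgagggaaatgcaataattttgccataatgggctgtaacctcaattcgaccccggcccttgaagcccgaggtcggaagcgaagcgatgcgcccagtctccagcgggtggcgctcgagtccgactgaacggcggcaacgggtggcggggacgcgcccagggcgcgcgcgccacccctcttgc
Among the 24 promoters of the 22 genes, 17 held CANNTG on either strand and 4 held TGATNNAT, a composite Pbx and Hox motif, on either strand. Of all 32851 promoters in the table, 66.2% held the first and 7.68% the second over the same length. The Hox promoters had a median of 12.5 CG dinucleotides against 6 over all promoters.

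The cells expressed the Hoxa and Hoxc clusters, traces of Hoxb and almost no Hoxd. Over all libraries the Hoxa genes (chr6:52155590-52260880) took 167754 reads, the Hoxc genes (chr15:102921103-103036852) 163979, the Hoxb genes (chr11:96194316-96368256) 5569 and the Hoxd genes (chr2:74668310-74765142) 78, on GRCm38. At least 0.5 FPM in 3 or more libraries, the filter for a test, was reached by 11 of 11 Hoxa, 5 of 10 Hoxb, 9 of 9 Hoxc and 0 of 9 Hoxd genes, 25 of the 39 in all. A group mean of 1 FPM or more was reached by 23 genes (10 Hoxa, 4 Hoxb, 9 Hoxc). The 14 untested genes reached at most 0.301 FPM in any library, and 4 of them, Hoxb1, Hoxd1, Hoxd3 and Hoxd4, had no read in any library. In the map of levels by library, the rows of Hoxd, Hoxb1, Hoxb2 and Hoxb7 to Hoxb9 are dark throughout, and those of Hoxa9 to Hoxa11, Hoxc10 and Hoxc11 are among the brightest.

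**Figure D1:**
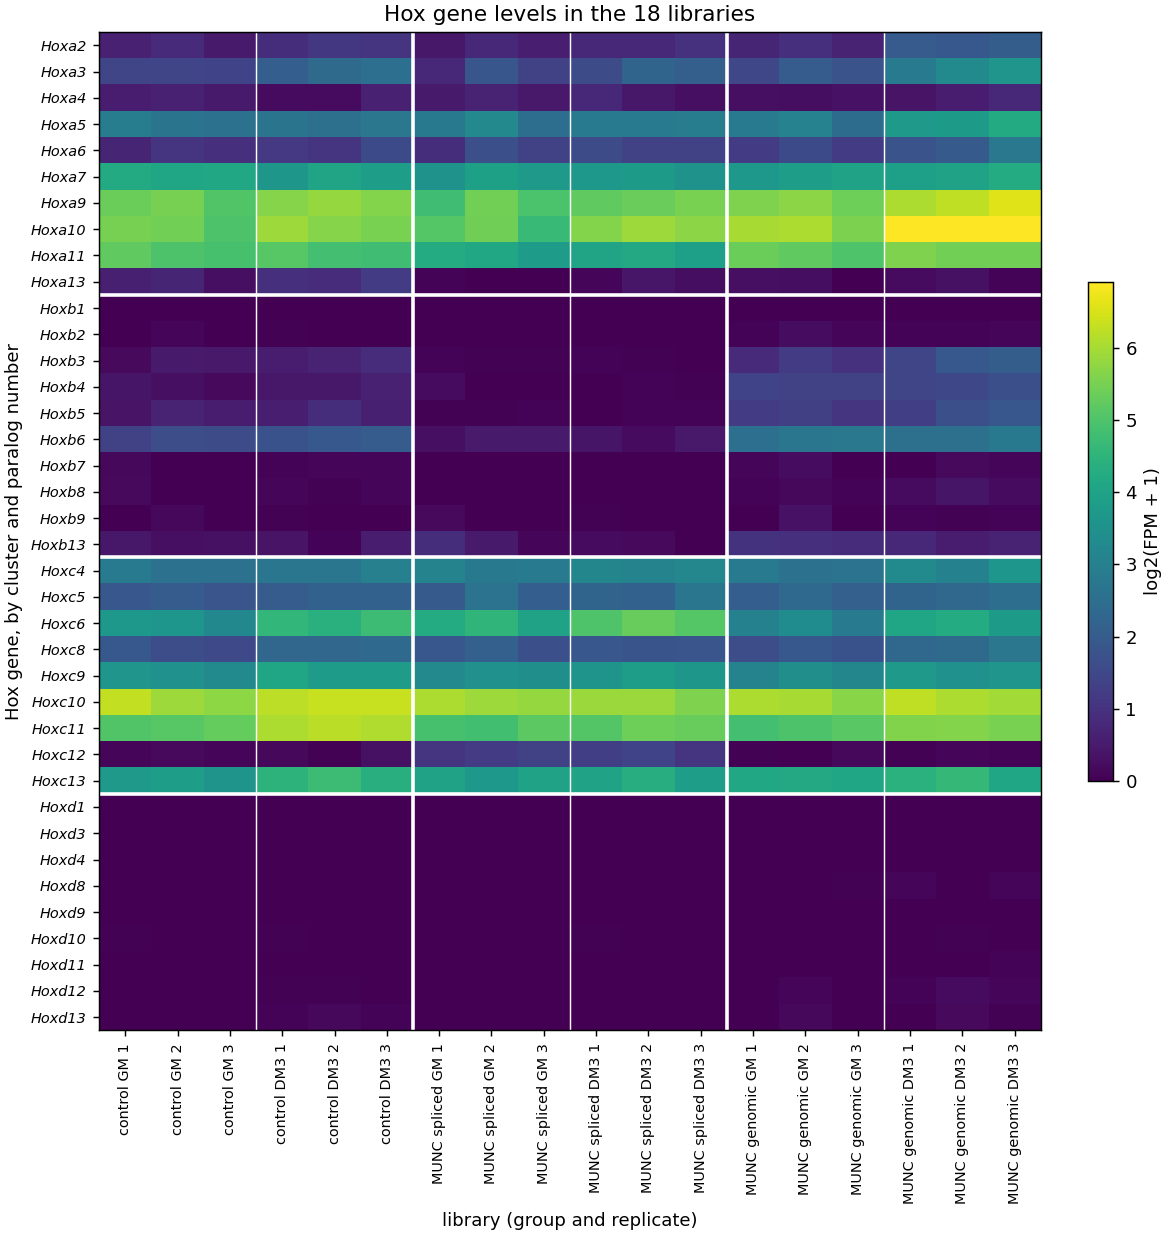
Level of 38 of the 39 Hox genes (rows, by cluster and paralog number) in each of the 18 libraries (columns, by line, medium and replicate), as log2(FPM + 1). Hoxa9 to Hoxa11, Hoxc10 and Hoxc11 are among the highest, Hoxb3 to Hoxb6 are visible in MUNC genomic and at 0 or near it in MUNC spliced libraries, and the Hoxd genes stay at or under 0.151 FPM each.

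The Hoxa and Hoxc levels were highest among the posterior genes, below the last members of the clusters. Per kilobase of exon, which allows comparison between genes, Hoxc10 was the highest Hoxc gene in all 6 groups, with group means of 28.2 to 40.6 FPM per kb, followed by Hoxc11 (15.1 to 34.1 FPM per kb). In the Hoxa cluster Hoxa10 led in 5 groups and Hoxa11 in control GM, where they stood at 12 ± 2.3 and 14.1 ± 1.8 FPM per kb (SD, n = 3), less apart than their spread. Paralogs 9 to 13 held 66.4% to 78.4% of the summed FPM per kb of the Hoxa cluster and 75.1% to 88.7% of that of the Hoxc cluster. The Hoxb cluster had another order, since Hoxb6 led in 5 groups and paralogs 9 to 13 held 5.57% to 9.84% in the control and MUNC genomic groups. In MUNC spliced cells, where Hoxb reads were few, paralogs 9 to 13 held 48.7% in GM, with Hoxb13 the highest, and 22.6% in DM3. Hoxa13, which patterns the limb tip, stayed at 0.0117 to 0.412 FPM per kb, and Hoxc12 at 0.0385 to 1.33.

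Of the cluster sums, that of Hoxb separated the lines in both media. Summed over its 10 genes, the Hoxb cluster stood at 3.27 ± 0.43 FPM (SD, n = 3) in control GM, 0.996 ± 0.42 FPM in MUNC spliced GM against 10.5 ± 0.92 FPM in MUNC genomic GM. In DM3 the sums were 4.80 ± 0.74, 0.498 ± 0.058 and 12.8 ± 2.1 FPM in the same order of lines. No library of 1 line overlapped those of another in either medium. The Hoxa sum was highest in MUNC genomic DM3, at 291 ± 22 FPM against 160 ± 7.9 FPM in control DM3 against 136 ± 8.3 FPM in MUNC spliced DM3. The Hoxc sum was highest in control DM3, at 219 ± 5.9 FPM against 170 ± 13 FPM in MUNC spliced and 180 ± 10 FPM in MUNC genomic DM3. The Hoxc sums of the MUNC lines overlapped in DM3. In GM the control sums overlapped those of both MUNC lines for Hoxa and for Hoxc. The Hoxa sums in GM were 119.4 to 150.9 FPM in control, 91.56 to 132.9 FPM in MUNC spliced and 144.3 to 184.3 FPM in MUNC genomic cells. For Hoxc they were 128.1 to 156.2, 142.9 to 151.3 and 126.8 to 142.2 FPM in the same order.

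To set line identity beside differentiation, the sum of squares of log2(FPM + 1) over the 18 libraries was split for each gene into shares between lines, between media, their interaction and within groups. The median share between lines was 39.5% over the 25 tested Hox genes and 32.5% over all 13869 tested genes. The median share between media was 12.9% for the Hox genes and 27.2% for all genes. The line share exceeded the medium share in 17 of 25 Hox genes and in 54% of all genes. Among the 17 are all 5 Hox genes that passed the filter for a test only through 1 line (Hoxa13, Hoxb3, Hoxb4, Hoxb13 and Hoxc12). The Hox medians and this count were therefore partly fixed by the filter. How many of all tested genes passed in this way was not counted. These shares are a description without a test. The median medium share rested partly on single libraries, as it was 20.0% without MUNC spliced GM replicate 2.

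Individual members spread from one extreme to the other. Hoxb6 (97.4%), Hoxc12 (96.7%), Hoxb4 (96.5%), Hoxa11 (91.6%), Hoxb5 (89.8%) and Hoxb3 (79.5%) had most of their spread between lines. For some members the filter had a part in this. A gene was tested if 3 libraries reached 0.5 FPM, and 5 of the 25 passed only through the line in which they were highest: Hoxc12 through MUNC spliced, Hoxb3, Hoxb4 and Hoxb13 through MUNC genomic and Hoxa13 through control libraries, so these genes had to differ between lines. Hoxc9 (55.4%), Hoxc11 (55.0%), Hoxa3 (51.8%), Hoxc6 (47.9%), Hoxc8 (43.7%) and Hoxc13 (42.6%) had their largest share between media, as did Hoxa2 (39.2%) and Hoxc4 (36.5%). Hoxa5 had 32.8% in the interaction. In the plot of the shares, the tested Hoxb genes lie along the line axis and most of the genes below the diagonal are Hoxc genes.

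**Figure D2:**
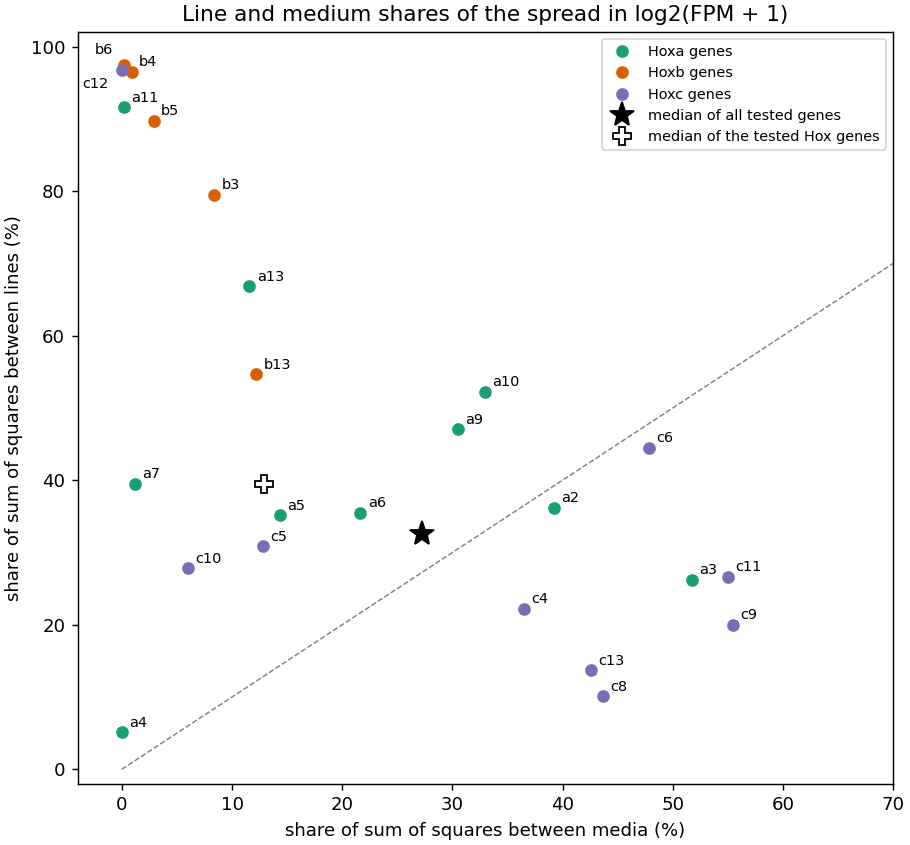
Share of the sum of squares of log2(FPM + 1) between lines (vertical, %) against the share between media (horizontal, %) for 24 of the 25 tested Hox genes, labelled by cluster letter and paralog number, with equal shares on the dashed line. The star marks the median of all 13869 tested genes (27.2%, 32.5%) and the open plus the Hox median (12.9%, 39.5%), and 16 of the 24 genes shown lie above the dashed line. Of these, Hoxa13, Hoxb3, Hoxb4, Hoxb13 and Hoxc12 passed the filter only through 1 line.

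On differentiation, control cells had higher levels of several Hoxc and Hoxa genes. Between control DM3 and control GM, 10 of 25 Hox genes were called higher and 0 lower at a Benjamini-Hochberg adjusted p under 0.05 (limma), a share of 40% where 58.2% of all tested genes were called (29.6% higher, 28.6% lower). Their median log2 change was 0.32, against 0.02 over all tested genes. The called genes were 5 of 9 Hoxc (Hoxc6, Hoxc11, Hoxc13, Hoxc8, Hoxc9), 4 of 11 Hoxa (Hoxa3, Hoxa13, Hoxa9, Hoxa2) and 1 of 5 Hoxb genes (Hoxb6). With the replicate number as a block, Hoxa10, Hoxb3 and Hoxc10 were added, all higher. MUNC genomic cells had 13 genes higher and 0 lower, 52% where 51.4% of all genes were called (26.3% higher, 25.1% lower), with a median change of 0.37. MUNC spliced cells had 2 higher and 0 lower, 8% where 35.6% of all genes were called (17.2% higher, 18.4% lower), with a median change of 0.04. The libraries of both media did not overlap for 14 Hox genes in control (62.4% of all tested genes), 6 in MUNC spliced (44.6%) and 16 in MUNC genomic cells (62.8%). In bulk RNA, fewer cells of a type and less RNA per cell cannot be told apart.

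Hoxc6, which acts in the thoracic region and the limb bud, was the member called in all 3 lines, and it differed between the lines as well. Its level was 12, 11.3 and 8.39 FPM in control GM against 22.9, 20.1 and 25.8 FPM in control DM3. MUNC spliced libraries held 17.99, 22.1 and 14.8 FPM in GM against 31.1, 38.8 and 33.5 FPM in DM3, and MUNC genomic libraries 7.17, 9.39 and 6.03 and 15.99, 17.97 and 12.8 FPM. GM and DM3 libraries did not overlap within any line. The log2 change was 1.06 ± 0.18 (SE, adjusted p = 0.000146) in control, 0.89 ± 0.18 (adjusted p = 0.0016) in MUNC spliced and 0.96 ± 0.18 (adjusted p = 0.000422) in MUNC genomic cells. Within each medium the order was MUNC spliced above control above MUNC genomic. MUNC spliced exceeded control by 0.73 in GM (adjusted p = 0.00583) and by 0.57 in DM3 (adjusted p = 0.0204), and it exceeded MUNC genomic by 1.18 (adjusted p = 0.000111) and 1.10 (adjusted p = 0.000134). MUNC genomic lay below control by -0.54 in DM3 (adjusted p = 0.0289), a call lost in 4 of 6 fits that left out 1 library (up to adjusted p = 0.131, without MUNC genomic DM3 replicate 3). In GM the difference was -0.45, with adjusted p = 0.0859, or 0.0321 with the replicate number as a block. The call against control in MUNC spliced DM3 was lost without control DM3 replicate 2 (adjusted p = 0.0863) or MUNC spliced DM3 replicate 2 (0.0815).

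Hoxc11, a posterior gene of the hindlimb, rose in control cells and changed less in MUNC spliced cells. Control libraries held 31.8, 33.6 and 37.95 FPM in GM against 66.5, 72.5 and 67.7 FPM in DM3, a log2 change of 0.98 ± 0.12 (adjusted p = 3.77e-06) and a ratio of means of 2.0. In MUNC genomic cells it rose from 27.9, 30.4 and 34.7 FPM to 47.8, 48.9 and 45.4 FPM, by 0.60 ± 0.12 (adjusted p = 0.000453). In MUNC spliced cells it stood at 29.1, 27.6 and 35.1 FPM in GM against 32.6, 40.8 and 38.5 FPM in DM3, and the change of 0.28 ± 0.12 (95% interval 0.03 to 0.52) was not called (adjusted p = 0.0709). The lines overlapped in GM and separated fully in DM3, with control highest and MUNC spliced lowest. The MUNC spliced level lay below control in DM3 by -0.87 (adjusted p = 1.75e-05), MUNC genomic by -0.53 (adjusted p = 0.00161). The interaction, the difference between a line's change and the control change, was -0.70 ± 0.16 for MUNC spliced (adjusted p = 0.0115) and -0.38 ± 0.16 for MUNC genomic cells (adjusted p = 0.177). MUNC spliced was below MUNC genomic in DM3 by -0.34 (adjusted p = 0.0247), a call lost in 3 of 6 fits that left out 1 library (up to adjusted p = 0.116, without MUNC spliced DM3 replicate 1).

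Hoxc13, the most posterior Hoxc gene and known from hair follicles, rose in control cells from 12.5, 13.4 and 10.97 FPM to 21.2, 25.8 and 19.8 FPM, by 0.80 ± 0.15 (adjusted p = 0.000318). MUNC spliced libraries held 14.8, 11.99 and 14.8 FPM in GM against 14.8, 18.9 and 13.7 FPM in DM3, and MUNC genomic libraries 16.6, 17.1 and 16.1 and 20.2, 23.5 and 16.2 FPM. GM and DM3 overlapped in both of these lines, and neither change was called. The interaction was -0.63 for MUNC spliced (adjusted p = 0.0617, or 0.0199 with the replicate block). For MUNC genomic cells it was -0.56 (adjusted p = 0.128, or 0.048 with the block). The replicate numbers did not pair the samples in either interaction. There the block also added calls for Hoxb6 and Hoxc10 (MUNC spliced) and for Hoxa10 and Hoxa11 (MUNC genomic). In DM3, MUNC spliced lay below control by -0.47 (adjusted p = 0.0204), a call lost in 3 of 6 fits that left out 1 library (up to adjusted p = 0.106, without control DM3 replicate 2). In GM, MUNC genomic lay above control by 0.41 without overlap (adjusted p = 0.0594, or 0.0221 with the replicate block).

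Hoxc8, which specifies brachial motor neurons, separated media in 2 lines. It stood at 2.77, 2.12 and 1.89 FPM in control GM against 3.86, 3.87 and 4.18 FPM in control DM3 (0.62 ± 0.15, adjusted p = 0.00188), and at 2.09, 2.73 and 2.35 and 3.997, 4.202 and 5.76 FPM in MUNC genomic cells (0.73 ± 0.15, adjusted p = 0.000644). In MUNC spliced cells it held 2.67, 3.39 and 2.2 FPM in GM against 2.696, 2.51 and 2.55 FPM in DM3, with a change of -0.06 (95% interval -0.37 to 0.26). In DM3 MUNC spliced lay below control by -0.47 (adjusted p = 0.0161, and 0.0533 without control DM3 replicate 3) and below MUNC genomic by -0.64 (adjusted p = 0.00198), with no overlap. The interaction of MUNC spliced was -0.67 ± 0.21 (adjusted p = 0.0404), a call lost in 9 of 12 fits that left out 1 library (up to adjusted p = 0.111, without MUNC spliced GM replicate 2).

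Hoxc9, which acts at thoracic level, moved by a similar amount in each line. It held 11.3, 10.4 and 9.004 FPM in control GM against 15.7, 12.9 and 12.9 FPM in control DM3, 8.48, 10.3 and 9.85 and 11.01, 13.8 and 11.6 FPM in MUNC spliced, and 7.54, 9.64 and 8.09 and 12.2, 10.2 and 11.1 FPM in MUNC genomic cells. DM3 lay above GM without overlap in all 3 lines, with changes of 0.40 (adjusted p = 0.0196), 0.32 (adjusted p = 0.0805) and 0.37 (adjusted p = 0.031). It was called in no comparison of lines. The control call was lost without control GM replicate 3 (adjusted p = 0.0873) or control DM3 replicate 1 (0.0864), and the MUNC genomic call in 4 of 6 such fits (up to adjusted p = 0.119, without MUNC genomic GM replicate 1).

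**Figure D3:**
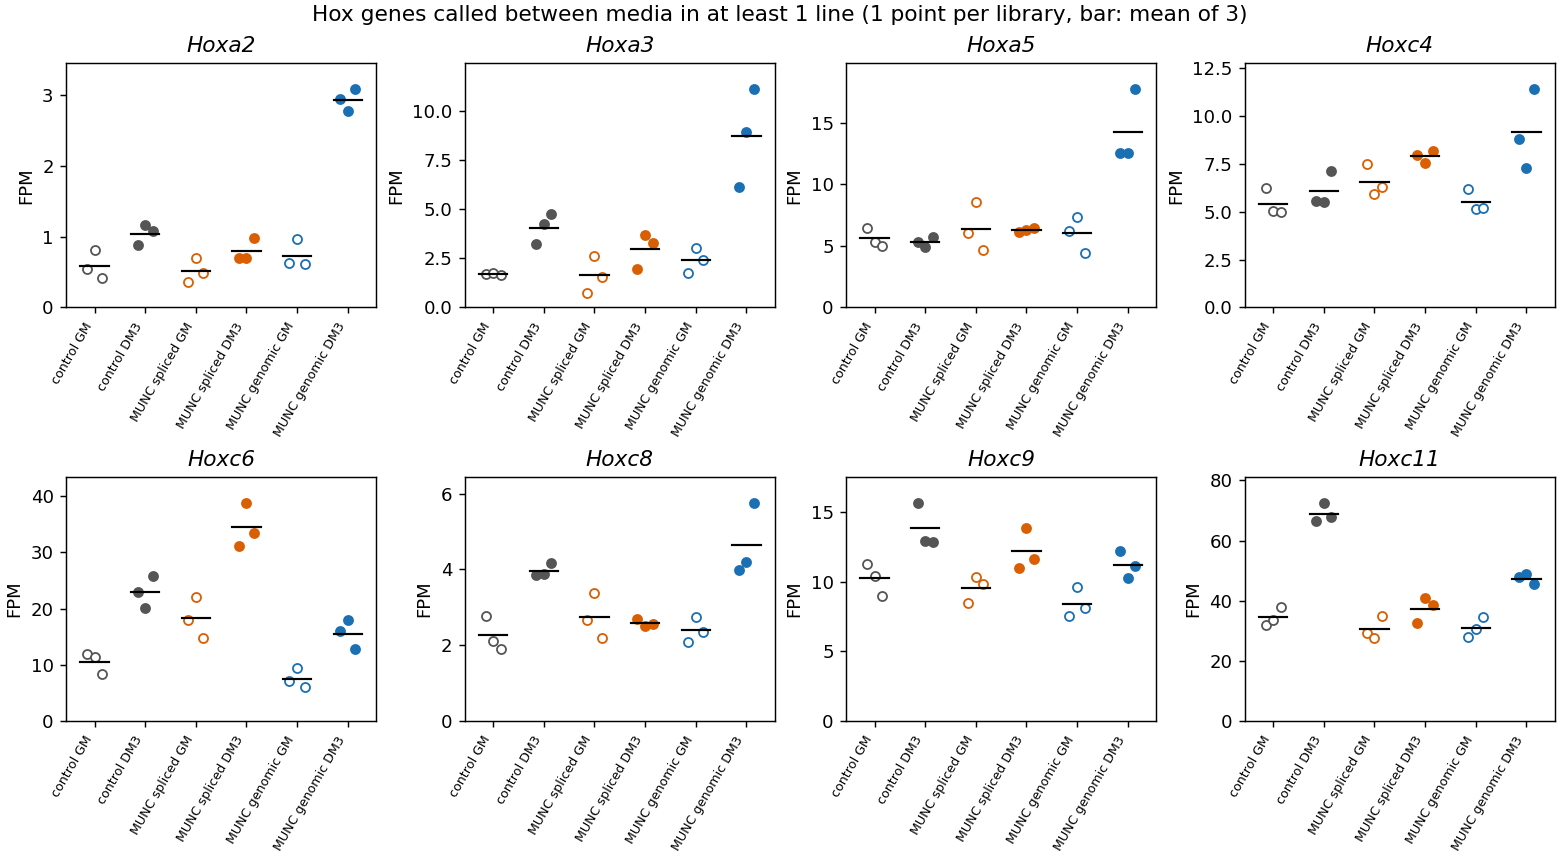
Levels in FPM (vertical) of 8 Hox genes in the 6 groups, with 1 point per library (open in GM, filled in DM3) and a bar at the mean of 3. Hoxc6 is higher in DM3 than in GM in every line, Hoxc11 is highest in control DM3 (66.5 to 72.5 FPM), and Hoxa2, Hoxa3 and Hoxa5 are highest in MUNC genomic DM3.

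Hoxa2, Hoxa3, Hoxa5 and Hoxa6 rose most in MUNC genomic cells, as did the posterior Hoxa9 and Hoxa10. Of these genes only Hoxa2 and Hoxa5 had a called interaction. Hoxa2, a regulator of the hindbrain and second pharyngeal arch, stood at 0.546, 0.814 and 0.415 FPM in control GM against 0.883, 1.16 and 1.09 FPM in control DM3, at 0.353, 0.697 and 0.487 and 0.702, 0.697 and 0.976 FPM in MUNC spliced, and at 0.6299, 0.962 and 0.609 and 2.95, 2.77 and 3.08 FPM in MUNC genomic cells. The 3 MUNC genomic DM3 libraries lay above all other libraries, and the ratio of means to MUNC genomic GM was 4.0. The change was 0.37 ± 0.12 in control (adjusted p = 0.0177), 0.25 ± 0.12 in MUNC spliced (adjusted p = 0.128) and 1.19 ± 0.12 in MUNC genomic cells (adjusted p = 2.08e-06), with an interaction of 0.82 ± 0.17 (adjusted p = 0.00694). The interaction was not called by edgeR (adjusted p = 0.124) or DESeq2 (0.0772) on the recovered reads. The control call was lost without control GM replicate 3 (adjusted p = 0.088) or control DM3 replicate 2 (0.066).

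Hoxa3, needed for the thymus and parathyroid, held 1.71, 1.73 and 1.64 FPM in control GM against 3.21, 4.22 and 4.73 FPM in control DM3, a change of 0.90 ± 0.25 (adjusted p = 0.00606). In MUNC genomic cells it held 1.77, 3.005 and 2.42 and 6.11, 8.95 and 11.1 FPM, a change of 1.5 ± 0.25 (adjusted p = 0.000133). The MUNC spliced libraries, at 0.732, 2.62 and 1.55 and 1.97, 3.68 and 3.27 FPM, overlapped between media (0.63 ± 0.25, adjusted p = 0.0609). MUNC genomic DM3 exceeded control DM3 by 0.92 (adjusted p = 0.00772) and MUNC spliced DM3 lay below MUNC genomic DM3 by -1.28 (adjusted p = 0.000576). Its exons overlap 5 other listed genes, 4 of them on the opposite strand.

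Hoxa5, which acts in the lung and at cervical and upper thoracic level, separated media in 1 line. It stood at 6.49, 5.33 and 5.03 FPM in control GM against 5.34, 4.87 and 5.73 FPM in control DM3, and at 6.01, 8.54 and 4.63 and 6.11, 6.33 and 6.44 FPM in MUNC spliced cells. In MUNC genomic cells it went from 6.24, 7.38 and 4.43 FPM to 12.5, 12.6 and 17.7 FPM, by 1.13 ± 0.19 (adjusted p = 0.000173), above every other library. The change was -0.06 in control (95% interval -0.47 to 0.35) and 0.01 in MUNC spliced cells (-0.40 to 0.43). The interaction of MUNC genomic was 1.19 ± 0.27 (adjusted p = 0.012). MUNC genomic DM3 exceeded control DM3 by 1.26 (adjusted p = 7.48e-05) and MUNC spliced DM3 lay below MUNC genomic DM3 by -1.05 (adjusted p = 0.00035).

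Hoxa6, a thoracic gene, followed at lower levels, with 0.632, 1.11 and 0.937 FPM in control GM against 1.21, 1.08 and 1.92 FPM in control DM3, 0.883, 2.22 and 1.51 and 1.99, 1.52 and 1.52 FPM in MUNC spliced, and 1.35, 1.96 and 1.28 and 2.41, 2.88 and 5.82 FPM in MUNC genomic cells. It rose in MUNC genomic cells alone among the 3 tests (0.84 ± 0.24, adjusted p = 0.00731), without a call for its interaction (0.50, adjusted p = 0.412). MUNC genomic DM3 exceeded control DM3 by 0.92 (adjusted p = 0.00532). MUNC spliced DM3 lay below MUNC genomic DM3 by -0.75 (adjusted p = 0.0165), a call lost without MUNC genomic DM3 replicate 3 (0.106) or MUNC spliced DM3 replicate 2 (0.05).

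Between the lines, the widest separation was in a contiguous block of the Hoxb cluster. Hoxb3, Hoxb4, Hoxb5 and Hoxb6 lie side by side from position 96292476 to 96347930 of chromosome 11, and in both media MUNC genomic cells held most of each, control cells less and MUNC spliced cells least. Hoxb6, a gene of lateral plate mesoderm and limb field, stood at 1.57, 2.12 and 2.01 FPM in control GM, 0.227, 0.422 and 0.415 FPM in MUNC spliced GM against 4.74, 5.55 and 5.82 FPM in MUNC genomic GM. In DM3 the values were 2.32, 2.74 and 3.002, 0.304, 0.157 and 0.3797 and 4.87, 4.92 and 5.97 FPM. The 3 lines did not overlap in either medium. MUNC spliced lay below control by -1.10 ± 0.13 in GM (adjusted p = 5.86e-06) and -1.53 ± 0.13 in DM3 (adjusted p = 9.31e-08). MUNC genomic lay above control by 1.14 ± 0.13 (adjusted p = 3.69e-06) and 0.76 ± 0.13 (adjusted p = 0.00014), with ratios of means of 2.82 and 1.95. Between the 2 overexpressing lines the difference was -2.23 in GM (adjusted p = 6.87e-10) and -2.29 in DM3 (adjusted p = 3.32e-10). Differentiation added 0.35 in control cells (adjusted p = 0.026), a call lost in 3 of 6 fits that left out 1 library (up to adjusted p = 0.117, without control GM replicate 1). By edgeR on the recovered reads its adjusted p was 0.132.

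Hoxb4 is known from blood stem cells. MUNC genomic libraries held 1.63, 1.57 and 1.57 FPM in GM against 1.702, 1.81 and 2.21 FPM in DM3, control libraries 0.307, 0.212 and 0.123 and 0.365, 0.355 and 0.553 FPM, and MUNC spliced libraries 0.151, 0.0183 and 0.01804 and 0, 0.0523 and 0.0362 FPM, which is 0 to 6 reads each. MUNC genomic exceeded control by 1.10 ± 0.10 in GM (adjusted p = 2.46e-07) and 1.03 ± 0.10 in DM3 (adjusted p = 3.12e-07). Like Hoxb3 and Hoxb13, Hoxb4 passed the filter only through MUNC genomic libraries, so this direction was partly fixed by the filter. MUNC spliced was below control by -0.47 in DM3 (adjusted p = 0.00107), and in GM, where 1 library overlapped control, by -0.19 (adjusted p = 0.135). Its change on differentiation was called in no line, with 0.23 in control (adjusted p = 0.0517).

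Hoxb5, which acts at the level of the shoulder, held 0.2902, 0.584 and 0.446 FPM in control GM against 0.499, 0.888 and 0.534 FPM in control DM3, and 1.29, 1.49 and 1.11 and 1.44, 2.21 and 2.65 FPM in MUNC genomic cells. In MUNC spliced cells it was at 0.0252, 0.0367 and 0.0541 FPM in GM against 0, 0.0523 and 0.0542 FPM in DM3, 0 to 3 reads per library and so no more than the limit that a count of 0 allows. MUNC genomic exceeded control by 0.67 (adjusted p = 0.00138) and 0.91 (adjusted p = 5.01e-05), and MUNC spliced lay below it by -0.47 (adjusted p = 0.0135, and 0.0564 without control GM replicate 2) and -0.66 (adjusted p = 0.000972). The rise of 0.42 in MUNC genomic DM3 (adjusted p = 0.016) was lost in 3 of 6 fits that left out 1 library (up to adjusted p = 0.0969, without MUNC genomic DM3 replicate 3) and by edgeR (adjusted p = 0.137) and DESeq2 (0.0928).

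Hoxb3, a gene of the hindbrain and throat, had 0.137, 0.407 and 0.384 FPM in control GM against 0.461, 0.572 and 0.847 FPM in control DM3, 0.0505, 0.0367 and 0.0361 and 0.05695, 0.0348 and 0.0181 FPM in MUNC spliced (1 to 3 reads per library), and 0.802, 1.3 and 0.987 and 1.72, 2.74 and 3.12 FPM in MUNC genomic cells. Differentiation raised it in MUNC genomic cells by 0.78 ± 0.14 (adjusted p = 0.000293). In control cells the change was 0.31 (adjusted p = 0.0724, or 0.0352 with the replicate block). MUNC genomic exceeded control by 0.63 in GM (adjusted p = 0.00365) and 1.10 in DM3 (adjusted p = 1.29e-05). The MUNC spliced level lay below control by -0.64 in DM3 (adjusted p = 0.00184) and by -0.32 in GM (adjusted p = 0.0901, or 0.041 with the block). Hoxb3os, on the opposite strand over 52.9% of its exon bases, averaged at most 0.338 FPM in any group.

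The other tested Hoxb gene, Hoxb13, lies apart from this block at the far end of the cluster and is known from prostate and tail. It ranged from 0.212 to 0.358 FPM in control GM, 0.0395 to 0.442 FPM in control DM3, 0.0902 to 0.858 FPM in MUNC spliced GM, 0.0181 to 0.152 FPM in MUNC spliced DM3, and 0.467 to 1.03 FPM over the MUNC genomic libraries. MUNC genomic exceeded control in GM by 0.60 (adjusted p = 0.00921, or 0.0548 by edgeR) and in DM3 by 0.37 (adjusted p = 0.0748, or 0.0431 with the replicate block). MUNC spliced lay below MUNC genomic by -0.44 in GM (adjusted p = 0.0384) and -0.55 in DM3 (adjusted p = 0.00946). The GM call was lost in 5 of 6 fits that left out 1 library (up to adjusted p = 0.202, without MUNC spliced GM replicate 3), by edgeR (0.188) and by DESeq2 (0.222). Hoxb13 was an exception to the absence of lower calls on differentiation. In MUNC spliced cells its change of -0.37 (adjusted p = 0.0763) was called lower by edgeR (adjusted p = 0.0446) and DESeq2 (0.0216). Those tools called 3 higher and 1 lower, and 6 higher and 1 lower, of the Hox genes there.

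**Figure D4:**
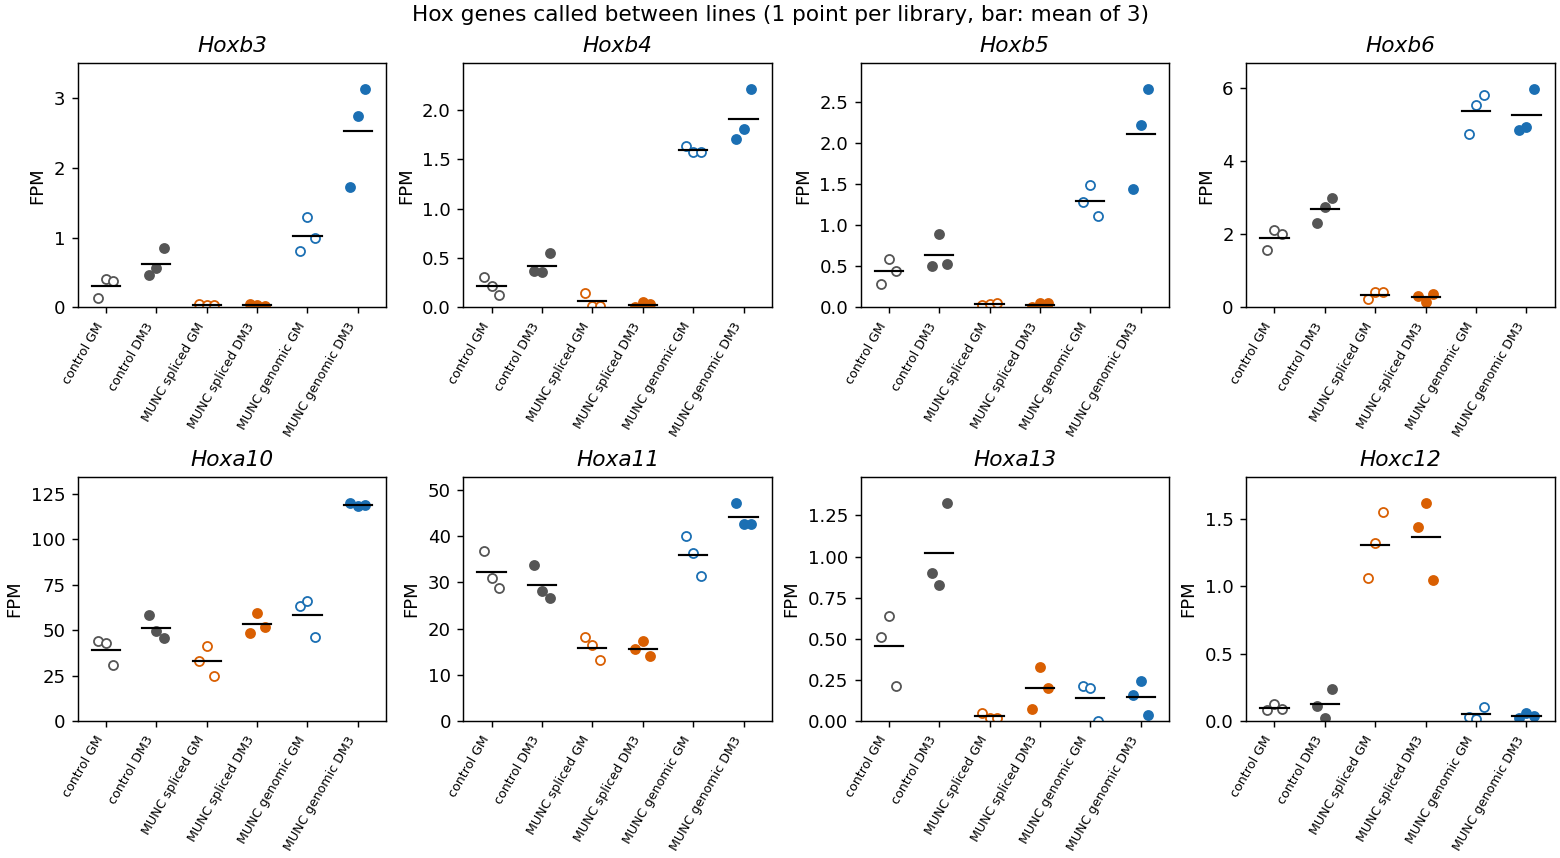
Levels in FPM (vertical) of 8 Hox genes in the 6 groups, with 1 point per library (open in GM, filled in DM3) and a bar at the mean of 3. Hoxb3 to Hoxb6 are highest in MUNC genomic and lowest in MUNC spliced cells in both media, Hoxc12 is above 1 FPM in MUNC spliced cells alone, and Hoxa11 is lowest there (13.2 to 18.1 FPM).

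Over the whole list, 6 Hox genes were higher and 0 lower in MUNC genomic than in control GM, 24% where 26.8% of all tested genes were called (12.2% higher, 14.5% lower). They were Hoxa10 and the 5 tested Hoxb genes, of which Hoxb3, Hoxb4 and Hoxb13 had passed the filter only through MUNC genomic libraries, so that their direction was partly fixed by the filter. The other 5 Hoxb genes were too low to be tested. With the replicate number as a block the count in this comparison was 9, with Hoxc13 added as higher and Hoxa13 and Hoxc6 as lower. In DM3, 13 were higher and 3 lower, 64% where 40.3% of all genes were called (19.3% higher, 20.9% lower). The 13 comprised 8 of 11 Hoxa genes, 4 of 5 Hoxb genes and Hoxc4. MUNC spliced cells differed from control in 8 Hox genes in GM (3 higher, 5 lower), 32% where 35.5% of all genes were called (18.2% higher, 17.3% lower). In DM3 they differed in 13 (3 higher, 10 lower), 52% where 43.3% of all genes were called (22.3% higher, 21% lower). These comparisons share their control libraries. With the replicate block, MUNC spliced had 9 calls in GM and 14 in DM3, and MUNC genomic 17 in DM3. Libraries did not overlap between MUNC spliced and control for 9 Hox genes in GM (43.6% of all tested genes) and 17 in DM3 (53%). Between MUNC genomic and control this held for 13 in GM (37.9%) and 19 in DM3 (56.9%), and between the MUNC lines for 11 in GM (45.7%) and 18 in DM3 (57.2%). Directly compared, MUNC spliced had 2 Hox genes higher and 8 lower than MUNC genomic in GM, 40% where 35.8% of all genes were called (19.9% higher, 16% lower). In DM3 it had 2 higher and 15 lower, 68% where 44.2% of all genes were called (23.4% higher, 20.8% lower). In both media Hoxa9, Hoxa10, Hoxa11 and all 5 tested Hoxb genes were lower and Hoxc6 and Hoxc12 higher in MUNC spliced than in MUNC genomic cells. Of these, Hoxb3, Hoxb4 and Hoxb13 had passed the filter only through MUNC genomic and Hoxc12 only through MUNC spliced libraries. Their direction was therefore partly fixed by the filter. The same holds for Hoxc12 and Hoxa13 in MUNC spliced against control, and for Hoxa13, Hoxb3 and Hoxb4 in MUNC genomic DM3 against control. The myotube markers that were highest in MUNC spliced DM3, the fibroblast markers that were higher in MUNC spliced than in control cells and Cdh5 in MUNC genomic cells moved with the same libraries.

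Hoxc12 was high in MUNC spliced cells and low in the other 2 lines. This posterior gene lies beside Hoxc11 and stood at 1.06, 1.32 and 1.55 FPM in MUNC spliced GM against 1.44, 1.62 and 1.05 FPM in MUNC spliced DM3. Control libraries held 0.0854, 0.124 and 0.0922 FPM in GM against 0.115, 0.0197 and 0.239 FPM in DM3, and MUNC genomic libraries 0.0286, 0.0169 and 0.105 and 0.0198, 0.0602 and 0.03903 FPM. The MUNC spliced libraries had 42 to 93 reads each and all others 1 to 13. MUNC spliced exceeded control by 1.06 ± 0.11 in GM (adjusted p = 1.46e-06) and 1.07 ± 0.11 in DM3 (adjusted p = 8.67e-07), and MUNC genomic by 1.13 (adjusted p = 4.46e-07) and 1.18 (adjusted p = 1.73e-07). Since Hoxc12 passed the filter only through MUNC spliced libraries, the direction of these differences was partly fixed by the filter. MUNC genomic was not called against control (-0.07 in GM, adjusted p = 0.702, and -0.11 in DM3, adjusted p = 0.449). Its change on differentiation was called in no line, with 0.03 in control, 0.04 in MUNC spliced and -0.01 in MUNC genomic cells and 95% intervals within -0.24 to 0.26.

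Hoxa11, which patterns the forearm and shank, was lower in MUNC spliced cells and was called between media in no line. It stood at 36.7, 30.9 and 28.9 FPM in control GM against 33.8, 28.1 and 26.6 FPM in control DM3, and at 18.1, 16.5 and 13.2 and 15.6, 17.2 and 14.1 FPM in MUNC spliced cells. MUNC genomic libraries held 39.97, 36.5 and 31.4 FPM in GM against 47.2, 42.6 and 42.7 FPM in DM3. The MUNC spliced level lay below control by -0.98 ± 0.14 in GM (adjusted p = 5.73e-05) and -0.87 ± 0.14 in DM3 (adjusted p = 0.000106), ratios of means of 0.494 and 0.531. MUNC genomic exceeded control in DM3 by 0.57 (adjusted p = 0.00351). Hoxa11os, the antisense gene over 35.0% of its exon bases, was also lower in MUNC spliced than in control cells, by -0.58 in GM (adjusted p = 0.00154) and -0.68 in DM3 (adjusted p = 0.000311), and reads of both genes cannot be told apart. Hoxc11, which encodes the same recognition-helix residues, did not separate the lines in GM.

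Hoxa10, next to Hoxa11 and active in the thigh and uterus, was highest in MUNC genomic cells. Control libraries held 44.2, 42.9 and 30.7 FPM in GM against 58.4, 49.6 and 45.6 FPM in DM3, and MUNC spliced libraries 33.3, 41.5 and 24.8 and 48.7, 59.5 and 51.5 FPM. In MUNC genomic cells it rose from 63.1, 66.4 and 46.1 FPM to 120.1, 118 and 119 FPM, by 1.03 ± 0.18 (adjusted p = 0.000198). It also rose in MUNC spliced cells (0.69 ± 0.18, adjusted p = 0.00752, and 0.0526 without MUNC spliced GM replicate 3), and in control cells the change was 0.39 (adjusted p = 0.0773, or 0.0175 with the replicate block). MUNC genomic exceeded control by 1.21 in DM3 (adjusted p = 5.34e-05). The excess of 0.57 in GM (adjusted p = 0.0287) was lost in 3 of 6 fits that left out 1 library (up to adjusted p = 0.14, without control GM replicate 3).

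Its paralog Hoxc10, the most abundant Hox gene per kilobase in 5 of the 6 groups, was called in 1 of the 9 comparisons. It stood at 76.8, 59.1 and 52.3 FPM in control GM against 73.5, 79.5 and 79.3 FPM in control DM3, at 66.7, 59.2 and 55.2 and 57.5, 57.5 and 46.7 FPM in MUNC spliced, and at 66.03, 63.6 and 50.9 and 75.2, 66.5 and 60.7 FPM in MUNC genomic cells. The 3 lines overlapped in GM. MUNC spliced was below control in DM3 by -0.52 ± 0.14 (adjusted p = 0.00711), without overlap. The change in control cells was 0.32 (adjusted p = 0.0645, or 0.0109 with the replicate block).

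Hoxa9, a posterior gene known from blood and muscle stem cells, had 39.9, 44.4 and 31.9 FPM in control GM against 49.8, 55.2 and 49.05 FPM in control DM3, 26.9, 42.9 and 29.97 and 36.5, 39.1 and 44.96 FPM in MUNC spliced, and 47.3, 52.03 and 40.8 and 66.1, 76.2 and 94.05 FPM in MUNC genomic cells. It rose in MUNC genomic cells (0.73 ± 0.17, adjusted p = 0.00195). The control call (0.41, adjusted p = 0.0494) was lost in 5 of 6 fits that left out 1 library (up to adjusted p = 0.212, without control GM replicate 3). MUNC genomic DM3 exceeded control DM3 by 0.60 (adjusted p = 0.0105, and 0.0624 without MUNC genomic DM3 replicate 3) and MUNC spliced DM3 lay below MUNC genomic DM3 by -0.94 (adjusted p = 0.000275). In GM MUNC spliced lay below MUNC genomic by -0.50 (adjusted p = 0.0309), lost in 4 of 6 such fits (up to adjusted p = 0.142, without MUNC spliced GM replicate 1).

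Hoxa13 was low and had its highest means in control cells. It held 0.512, 0.637 and 0.215 FPM in control GM against 0.903, 0.829 and 1.33 FPM in control DM3, 0.0505, 0.0183 and 0.01804 and 0.0759, 0.331 and 0.199 FPM in MUNC spliced, and 0.215, 0.203 and 0 and 0.158, 0.241 and 0.03903 FPM in MUNC genomic cells. It rose in control cells by 0.48 ± 0.13 (adjusted p = 0.00506), which edgeR (adjusted p = 0.131) and DESeq2 (0.16) did not call. MUNC spliced lay below control by -0.49 in GM (adjusted p = 0.00829) and -0.75 in DM3 (adjusted p = 0.00024), and MUNC genomic by -0.81 in DM3 (adjusted p = 0.000104). MUNC genomic GM lay below control GM without overlap, at -0.35 (adjusted p = 0.058, or 0.046 with the replicate block). Since Hoxa13 passed the filter only through control libraries, the direction of these differences from control was partly fixed by the filter.

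Hoxa7, a thoracic gene, had 17.6, 15.8 and 16.8 FPM in control GM against 11.8, 15.4 and 13.5 FPM in control DM3, 10.5, 14.2 and 12.1 and 11.9, 12.8 and 10.5 FPM in MUNC spliced, and 11.9, 13.5 and 14.8 and 13.9, 14.97 and 18.1 FPM in MUNC genomic cells. It was lower in MUNC spliced than in control GM (-0.43, adjusted p = 0.0267) and than in MUNC genomic DM3 (-0.38, adjusted p = 0.037). Either call was lost in 4 of 6 fits that left out 1 library (up to adjusted p = 0.114, without MUNC spliced GM replicate 1, and 0.164, without MUNC genomic DM3 replicate 3).

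Hoxc4 and Hoxc5, at the anterior end of the Hoxc cluster, are genes of the neck region. Hoxc4 held 6.26, 5.04 and 4.96 FPM in control GM against 5.59, 5.52 and 7.11 FPM in control DM3, 7.52, 5.903 and 6.28 and 7.96, 7.56 and 8.19 FPM in MUNC spliced, and 6.18, 5.13 and 5.21 and 8.82, 7.305 and 11.4 FPM in MUNC genomic cells. It rose in MUNC genomic cells (0.63 ± 0.15, adjusted p = 0.00281) to exceed control DM3 by 0.51 (adjusted p = 0.0139), a call lost without MUNC genomic DM3 replicate 3 (0.0861) or control DM3 replicate 2 (0.0586). MUNC spliced DM3 stood 0.34 above control DM3 (adjusted p = 0.0864, or 0.0452 with the replicate block). Hoxc5 was called in no comparison and held 2.68, 3.06 and 2.57 FPM in control GM against 3.05, 3.41 and 3.41 FPM in control DM3, 2.902, 5.19 and 3.21 and 3.702, 3.43 and 5.59 FPM in MUNC spliced, and 3.19, 4.12 and 3.36 and 3.72, 4.01 and 4.66 FPM in MUNC genomic cells. Hoxa4, at 0.154 to 0.741 FPM in all libraries, was the other tested gene called in no comparison. In the map of changes, calls on differentiation are confined to warm colours, and the Hoxb block turns from cold against control in MUNC spliced to warm in MUNC genomic cells.

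**Figure D5:**
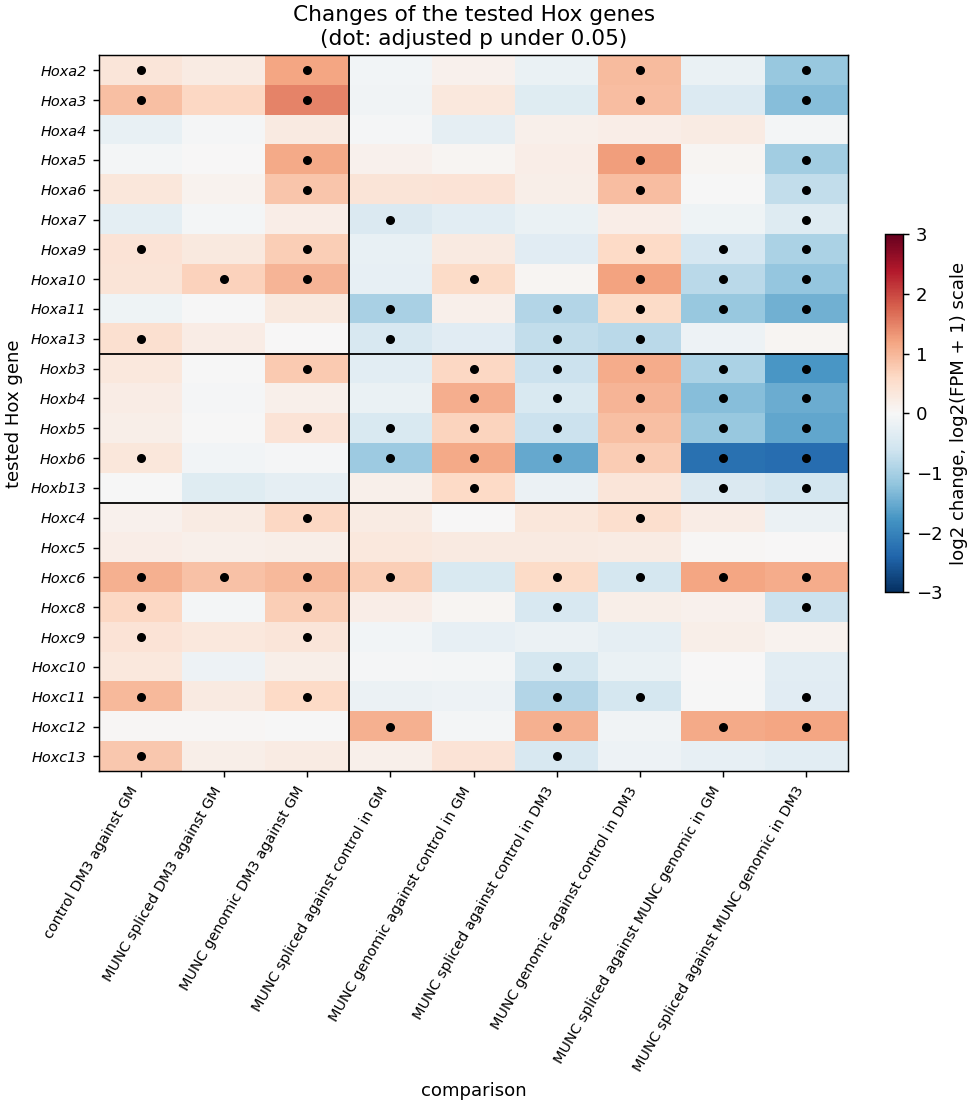
Log2 change (colour, log2(FPM + 1) scale) of 24 of the 25 tested Hox genes (rows) in 9 comparisons (columns), with a black dot at an adjusted p under 0.05. The 3 columns on the left compare DM3 with GM, where 10, 2 and 13 genes are called higher and 0 lower, and the 6 on the right compare lines within a medium.

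Tests of the difference in response gave few calls. The interaction of MUNC spliced with differentiation was called for 2 of 25 Hox genes, both lower (8% where 14.4% of all genes were called, 7.43% higher and 6.94% lower), and that of MUNC genomic for 2, both higher (8% where 8.81% of all genes were called, 3.56% higher and 5.25% lower). They were Hoxc11 and Hoxc8 for the first and Hoxa2 and Hoxa5 for the second.

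In the authors' deposited table for control DM3 against GM, 6 Hox genes had an adjusted p under 0.05, all higher, which leaves out Hoxa2, Hoxa9, Hoxb6 and Hoxc9 of the 10 called here. The authors' deposited tables for the MUNC lines in DM3 called the same counts as the fit used here, 3 higher and 10 lower for MUNC spliced and 13 higher and 3 lower for MUNC genomic cells. In GM the authors' deposited tables called 2 higher and 5 lower for MUNC spliced, with Hoxb3 called and Hoxa7 not, and 7 higher for MUNC genomic cells, with Hoxc13 added. The authors' deposited tables, on another scale, give a log2 fold change of -3.27 for Hoxb6 and 3.44 for Hoxc12 in MUNC spliced DM3 against control.

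The cofactors of Hox proteins were expressed throughout. All 9 TALE genes on the list were tested, and 4 rose and 2 fell in control cells on differentiation, 3 rose in MUNC spliced cells, and 6 rose and 3 fell in MUNC genomic cells. Their median changes were 0.41, 0.15 and 0.40 in the same order, against 0.02, -0.01 and 0.02 over all tested genes, of which 29.6%, 17.2% and 26.3% were called higher and 28.6%, 18.4% and 25.1% lower. Pknox2 averaged 1.62 ± 0.57 FPM in control GM, 20.4 ± 7.4 FPM in MUNC spliced GM against 26.3 ± 9.7 FPM in MUNC genomic GM, reaching 92.0 ± 3.95 FPM in MUNC genomic DM3. Its difference from control was called in both lines and both media (2.99 to 4.76). Meis3 was lower in MUNC spliced than in control cells by -1.33 in GM (adjusted p = 1.06e-05) and -1.10 in DM3 (adjusted p = 4.27e-05). Against control, 33.3% and 66.7% of the TALE genes were called in MUNC spliced GM and DM3, and 44.4% and 44.4% in MUNC genomic. Of all tested genes, 35.5%, 43.3%, 26.8% and 40.3% were called in these comparisons.

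Few noncoding genes within the clusters were measurable. Of 17 listed, 10 were in the table and 5 were tested, of which 2, 1 and 4 rose and 0 fell in control, MUNC spliced and MUNC genomic cells (median changes 0.37, 0.11 and 0.75). Of all tested genes, 29.6%, 17.2% and 26.3% were called higher and 28.6%, 18.4% and 25.1% lower in the same order. Hotair, transcribed antisense between Hoxc11 and Hoxc12, rose on differentiation in all 3 lines, from 6.21 ± 0.69 FPM to 21.2 ± 3.3 FPM in control (1.62, adjusted p = 8.95e-06), by 0.86 in MUNC spliced (adjusted p = 0.00462) and by 0.89 in MUNC genomic cells (adjusted p = 0.00213). In DM3 it was lower than control in MUNC genomic cells (-1.29, adjusted p = 0.000117) and in MUNC spliced cells (-0.56, adjusted p = 0.0399), as was Hoxc11. Between the MUNC lines they differed, since Hotair was higher in MUNC spliced than in MUNC genomic cells in GM (0.76, adjusted p = 0.00967) and DM3 (0.73, adjusted p = 0.00941), while Hoxc11 was lower in MUNC spliced DM3 (-0.34, adjusted p = 0.0247). Hotairm1, in the Hoxa cluster, was higher in MUNC spliced GM than in control (0.49, adjusted p = 0.0169) and lower in MUNC genomic GM (-0.50, adjusted p = 0.0193). Against control, 40% and 40% of the 5 were called in MUNC spliced GM and DM3, and 20% and 60% in MUNC genomic. Of all tested genes, 35.5%, 43.3%, 26.8% and 40.3% were called in these comparisons.

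Genes that flank the clusters were called in both directions. Of 21 listed, 19 were in the table and 15 were tested, of which 2 rose and 6 fell in control cells on differentiation, 2 rose and 3 fell in MUNC spliced, and 7 rose and 4 fell in MUNC genomic cells (median changes -0.23, -0.16 and 0.18). The called shares were 53.3%, 33.3% and 73.3%, where 58.2%, 35.6% and 51.4% of all tested genes were called in the same comparisons. Skap2, beside the Hoxa cluster, rose in all 3 lines (0.83, 0.74 and 1.56, highest adjusted p = 0.00214), as did Calcoco1, beside the Hoxc cluster (2.93, 1.41 and 2.69). Ttll6, beside the Hoxb cluster, exceeded control in MUNC genomic cells in GM (1.47, adjusted p = 0.000135) and DM3 (1.63, adjusted p = 2.56e-05), with 2.65 ± 0.41 FPM against 0.335 ± 0.34 FPM in GM. Against control, 40% and 20% of the 15 were called in MUNC spliced GM and DM3, and 33.3% and 33.3% in MUNC genomic. Of all tested genes, 35.5%, 43.3%, 26.8% and 40.3% were called in these comparisons. Mtx2, beside the silent Hoxd cluster, averaged 43.7 to 73.0 FPM over the groups.

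Of 24 limb and axial position factors, 12 were tested, of which 1 rose and 2 fell in control, 1 rose and 1 fell in MUNC spliced, and 2 rose and 5 fell in MUNC genomic cells (median changes -0.01, -0.02 and -0.10). The called shares were 25%, 16.7% and 58.3% against the same 58.2%, 35.6% and 51.4% of all genes. The hindlimb factor Pitx1 was at 0 in 5 groups and averaged 0.00603 FPM in MUNC spliced DM3, and Tbx4 averaged at most 0.202 FPM, while the limb factors Shox2 and Prrx1 averaged 42.1 to 59.8 and 50.9 to 389 FPM. Prrx1 exceeded control in MUNC spliced cells by 1.68 in GM (adjusted p = 9.7e-07) and 2.21 in DM3 (adjusted p = 2.85e-08). Against control, 25% and 41.7% of the 12 were called in MUNC spliced GM and DM3, and 16.7% and 50% in MUNC genomic. Of all tested genes, 35.5%, 43.3%, 26.8% and 40.3% were called in these comparisons. Meox1, a gene of the somites, averaged 2.65 ± 0.503 FPM in MUNC genomic DM3 against 0.577 ± 0.13 FPM in control DM3 (1.2 higher, adjusted p = 0.00246).

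Genes that act upstream of Hox genes were called in both directions. Of 14 ParaHox, retinoic acid and Gdf11 genes, 8 were tested, of which 3, 4 and 3 rose and 1 fell in each of control, MUNC spliced and MUNC genomic cells (median changes 0.38, 0.45 and 0.25). The called shares were 50%, 62.5% and 50% where 58.2%, 35.6% and 51.4% of all genes were called. Rarb, a retinoic acid receptor and target, was higher in MUNC spliced than in control cells by 1.15 in GM (adjusted p = 1.98e-06) and 1.67 in DM3 (adjusted p = 1.87e-08). Against control, 37.5% and 37.5% of the 8 were called in MUNC spliced GM and DM3, and 25% and 50% in MUNC genomic. Of all tested genes, 35.5%, 43.3%, 26.8% and 40.3% were called in these comparisons. Cyp26a1, which degrades retinoic acid, rose in control (1.64, adjusted p = 3.93e-06) and MUNC spliced cells (1.57, adjusted p = 2.73e-05). All 29 Polycomb group genes, which keep Hox genes silent, were tested. On differentiation 9 rose and 7 fell in control, 6 rose and 4 fell in MUNC spliced, and 10 rose and 8 fell in MUNC genomic cells (median changes 0.08, -0.01 and -0.02), which is 55.2%, 34.5% and 62.1% called and near the share of all genes in control and MUNC spliced cells. Ezh2, the H3K27 methyltransferase of dividing cells, fell in each line, from 143 ± 15 FPM to 34.1 ± 6.9 FPM in control (-2.05, adjusted p = 2.15e-06), while Ezh1 rose in each. Of 13 trithorax group genes and H3K27 demethylases, 3 rose and 6 fell in control, 1 rose and 3 fell in MUNC spliced, and 1 rose and 6 fell in MUNC genomic cells (median changes 0.10, -0.19 and -0.11), which is 69.2%, 30.8% and 53.8% called. Kdm6b, an H3K27 demethylase, rose in all 3 (1.08, 0.69 and 1.28).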

How the data were processed

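Poly(A) RNA of 18 libraries in 6 groups of 3 biological replicates was sequenced. The submitters' processing notes name STAR, HTSeq, DESeq2 and build mm10; versions, annotation and strand setting are not given in the sources used here. The authors deposited a signal table in FPM (gene reads divided by a library size factor, not by gene length), and per the file headers 5 tables of their comparisons with log2 fold changes, p-values and adjusted p-values and unused score columns (mean and statistic). Groups came from the sample titles, since another label disagreed with them in 9 samples.

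Dividing by the step of 1 read returned whole reads for 100% of the deposited values (within 0.05 reads). Genes with at least 0.5 FPM in 3 or more libraries (13869) were tested with limma 3.58.1 (R 4.3.3) on log2(FPM + 1), with 1 fit of all 18 libraries (12 residual degrees of freedom), and p-values were adjusted by Benjamini-Hochberg over all tested genes. Fold changes on this scale understate changes of low genes. The script was tested on simulated data. Alternatives were a pseudocount of 0.1, no filter, FPM rescaled to equal sums, the compared groups alone, a replicate block, edgeR 4.0.16 and DESeq2 1.42.0 on the recovered reads, a minimum log2 change of 1, and leaving out each library. Intervals and floors (3 reads) cover counting error only where counts are used. No replicate pair agreed within sampling noise (chi-square per degree of freedom 29.4 to 173).

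Replicate numbers come from the titles. In 6 comparisons every same-numbered pair deviated together from its group means (correlation over genes 0.171 to 0.727), and the blocked value is given there where it changes a call. Gene lengths and overlaps came from GENCODE M21 on GRCm38, which held 34490 of 35275 identifiers (97.8%) and 39 of 39 Hox genes.

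The members and gene lists were chosen with earlier results of these data known. Values per library are given for Hox genes with a group mean of 1 FPM or more, and others as ranges. Called Hox genes are named. From each other list at most 2 called genes per direction and comparison qualified, and Mtx2, Pitx1, Tbx4, Shox2, Hoxb3os and the cell markers were chosen after their values were seen. Some genes and sequences that met these rules are not reported here.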

Additional observations from a re-analysis of the deposited data

Results flagged for a closer look

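In 4 Hox genes the response to differentiation differed between a MUNC line and control by the interaction test (limma, adjusted over all tested genes). Hoxc11 changed by -0.70 relative to control in MUNC spliced cells (adjusted p = 0.0115). Hoxc8 changed by -0.67 in the same line (adjusted p = 0.0404), which edgeR (adjusted p = 0.0728), a pseudocount of 0.1 (0.0525), the fit of all genes without a filter (0.101) and the fit of the compared groups alone (0.0597) did not call. Hoxa2 changed by 0.82 relative to control in MUNC genomic cells (adjusted p = 0.00694), which edgeR (0.124), DESeq2 (0.0772) and a pseudocount of 0.1 (0.0819) did not call. Hoxa5 changed by 1.19 in the same line (adjusted p = 0.012). Both interactions share the control libraries.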

How the results depend on the processing

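Of 99 calls of Hox genes over 11 comparisons, 72 held in every alternative but the fold limit and in every fit that left out 1 library, and none reversed. DESeq2 kept 95, equal sums 97, edgeR 90, no filter 91, the compared groups alone 87, a pseudocount of 0.1 93 and the replicate block 99. With a minimum log2 change of 1, the counts were 1, 0 and 4 on differentiation in control, MUNC spliced and MUNC genomic cells, 2 and 2 for MUNC spliced against control in GM and DM3, 2 and 4 for MUNC genomic against control, 6 and 11 for MUNC spliced against MUNC genomic, and 0 and 1 for the MUNC spliced and MUNC genomic interactions. MUNC spliced DM3 against GM had 2 calls, 5 with the replicate block, 4 by edgeR and 7 by DESeq2. The MUNC spliced interaction had 2 calls, 1 with a pseudocount of 0.1, without the filter, with the compared groups alone or by edgeR, and 5 with the block. The MUNC genomic interaction had 2 calls, 1 with a pseudocount of 0.1, by edgeR or by DESeq2, and 5 with the block. Without the filter, which adds low genes, the median shares were 36.2% between lines and 8.59% between media for Hox genes against 21.1% and 12.2% for all genes, so the gap in the medium share was smaller than with the filter. The cause of the other shifts was not tested.

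Leaving out 1 library gave 7 to 10 calls in control on differentiation, 2 to 4 in MUNC spliced (4 without MUNC spliced GM replicate 2 or DM3 replicate 1) and 11 to 13 in MUNC genomic cells. Against control it gave 6 to 7 and 10 to 13 for MUNC spliced, and 5 to 7 and 13 to 16 for MUNC genomic cells, in GM and DM3. MUNC spliced against MUNC genomic had 8 to 9 and 15 to 17, and the interactions 1 to 3 (MUNC spliced, with Hoxc8 the call that was lost) and 2 to 3 (MUNC genomic). The median shares ranged from 37.1% to 44.2% between lines and 10.9% to 20.0% between media. Hoxa4 was called lower in control DM3 without control DM3 replicate 3 (-0.36, adjusted p = 0.0497), and Hoxb13 lower in MUNC genomic DM3 with the compared groups alone (adjusted p = 0.0405).

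In the comparisons whose numbers did not pair the samples by the correlation check, the replicate block moved MUNC genomic DM3 against GM from 13 to 15 calls and MUNC spliced against MUNC genomic in DM3 from 17 to 18. In the 6 that paired, the block changed no call beyond those given in the text. Replicates are labelled biological, and with 3 a group the fit shares 1 estimate of the spread. Hoxb genes in MUNC spliced cells rest on 0 to 34 reads per library (the most in Hoxb13), which limits what can be measured within that line.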
